A study of Homo sapiens with 54 samples.

Results

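The regions described here had no accessibility peak in untreated MDA-MB-231 cells and carried peaks both 1 and 10 days after cisplatin was removed. MDA-MB-231 is a triple-negative breast cancer line with mesenchymal features. Cisplatin is a platinum drug that crosslinks DNA. The deposited data are 18 peak lists from ATAC-seq, in which a transposase inserts sequencing adapters into open chromatin, with 3 lists for each of 6 groups. The groups are untreated MDA-MB-231, MDA-MB-231 survivors at day 1 and at day 10 after drug removal, and the same 3 states of PC3, a line from a bone metastasis of prostate cancer. Each list stands for 1 biological replicate, whose nuclei were split into 3 experimental replicates, giving 54 sequenced samples in all. Treated groups hold only cells that outlived the drug, and the series' title calls the survivors polyploid. The drug dose and exposure are not given in the sources used here. In bulk nuclei, a site open in more cells and a site more accessible in each cell cannot be told apart.

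Peaks of all 18 lists on chromosomes 1 to 22 and X were merged into 232138 regions, of which 149754 had a peak in at least 1 MDA-MB-231 list. A region was chosen when 0 of 3 untreated, 3 of 3 day 1 and 3 of 3 day 10 MDA-MB-231 lists had a peak in it, which left 6493 regions. From these, the 1215 regions with a peak in 3 of 3 PC3 day 10 lists and 0 of 3 untreated PC3 lists were dropped, since they opened in both lines. The remaining 5278 regions, the members, made up 3.52% of the regions of the line. The members were thus chosen by the presence or absence of peaks in these lists, so the gain over untreated cells is a description and was not tested.

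Accessible sites fall broadly into promoters, which surround gene starts and are often open in every cell type, and distal elements such as enhancers, which are more cell-type specific and are opened by transcription factors. AP-1, the dimer of FOS and JUN family proteins, is a stress-responsive factor that binds many enhancers of mesenchymal tumour cells. TEAD factors, partners of the Hippo pathway's YAP and TAZ, bind many of the same elements in this line. Whether a gained region is used as an enhancer cannot be read from peak lists.

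Among the members, 104 touched at least 1 of 34789 start-site windows in RefSeq for GRCh38.p14. Each window runs from 250 bases before an annotated start to 50 bases after it. The members touched 117 such windows, of 66 protein-coding genes and 43 other genes. The windows below are shown because members at start sites are the ones whose DNA can be read. FREY1, HK3, GNA14, IL23A and ENPP5 are among the 10 largest members at coding starts, and the others were picked after their values were seen. Capitals mark the AP-1 motif TGANTCA, searched on both strands, where N is any base. Coordinates and sequences are those of RefSeq GRCh38.p14, 5′ to 3′ on the strand given.
FREY1, chr11:45907222-45907521, minus strand: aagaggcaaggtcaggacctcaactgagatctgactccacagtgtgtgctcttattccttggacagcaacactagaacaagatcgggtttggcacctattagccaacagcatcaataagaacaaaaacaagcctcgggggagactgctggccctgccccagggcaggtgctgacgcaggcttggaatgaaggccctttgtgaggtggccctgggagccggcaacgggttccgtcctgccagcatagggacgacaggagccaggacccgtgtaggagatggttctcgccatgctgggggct
HK3, chr5:176899297-176899596, minus strand: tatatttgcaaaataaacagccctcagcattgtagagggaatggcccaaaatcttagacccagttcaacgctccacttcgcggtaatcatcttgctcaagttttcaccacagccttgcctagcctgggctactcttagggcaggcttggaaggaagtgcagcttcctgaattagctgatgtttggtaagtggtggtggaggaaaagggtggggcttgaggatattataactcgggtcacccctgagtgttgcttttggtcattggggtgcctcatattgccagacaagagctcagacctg
GNA14, chr9:77648273-77648572, minus strand: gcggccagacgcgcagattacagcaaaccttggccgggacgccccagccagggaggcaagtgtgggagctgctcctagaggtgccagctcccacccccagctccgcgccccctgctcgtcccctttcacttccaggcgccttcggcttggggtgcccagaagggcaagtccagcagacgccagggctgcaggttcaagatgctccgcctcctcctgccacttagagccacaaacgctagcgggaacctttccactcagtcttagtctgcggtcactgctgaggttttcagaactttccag
IL23A, chr12:56338634-56338933, plus strand: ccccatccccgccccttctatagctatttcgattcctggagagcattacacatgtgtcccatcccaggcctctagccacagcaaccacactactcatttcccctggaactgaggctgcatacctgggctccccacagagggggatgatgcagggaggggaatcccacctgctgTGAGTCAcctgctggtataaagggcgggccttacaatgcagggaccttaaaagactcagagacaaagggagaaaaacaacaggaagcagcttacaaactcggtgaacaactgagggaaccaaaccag
ENPP5, chr6:46170931-46171230, minus strand: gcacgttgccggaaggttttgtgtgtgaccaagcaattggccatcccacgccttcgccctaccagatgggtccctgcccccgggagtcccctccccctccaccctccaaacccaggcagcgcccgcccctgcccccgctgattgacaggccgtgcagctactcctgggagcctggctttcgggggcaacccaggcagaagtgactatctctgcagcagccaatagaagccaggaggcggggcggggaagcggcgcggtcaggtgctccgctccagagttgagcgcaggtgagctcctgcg
VTCN1, chr1:117210878-117211177, minus strand: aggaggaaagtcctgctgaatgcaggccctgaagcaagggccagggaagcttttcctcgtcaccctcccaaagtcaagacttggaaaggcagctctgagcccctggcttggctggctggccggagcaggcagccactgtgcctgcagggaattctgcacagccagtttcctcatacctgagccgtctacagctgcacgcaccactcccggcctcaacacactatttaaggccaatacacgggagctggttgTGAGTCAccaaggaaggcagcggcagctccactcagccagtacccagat
HBD, chr11:5234434-5234733, minus strand: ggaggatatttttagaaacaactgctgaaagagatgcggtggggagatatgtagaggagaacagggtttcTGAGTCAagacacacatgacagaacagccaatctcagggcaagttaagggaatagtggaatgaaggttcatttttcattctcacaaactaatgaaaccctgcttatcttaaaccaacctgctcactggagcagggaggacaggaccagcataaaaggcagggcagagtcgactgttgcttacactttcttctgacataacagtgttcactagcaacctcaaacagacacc
CYP19A1, chr15:51243866-51244165, minus strand: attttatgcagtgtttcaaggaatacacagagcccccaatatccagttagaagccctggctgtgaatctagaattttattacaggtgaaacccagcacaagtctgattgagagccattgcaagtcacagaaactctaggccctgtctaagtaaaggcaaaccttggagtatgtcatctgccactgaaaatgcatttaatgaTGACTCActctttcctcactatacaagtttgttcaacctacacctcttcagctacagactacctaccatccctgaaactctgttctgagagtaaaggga
ABCC11, chr16:48232222-48232521, minus strand: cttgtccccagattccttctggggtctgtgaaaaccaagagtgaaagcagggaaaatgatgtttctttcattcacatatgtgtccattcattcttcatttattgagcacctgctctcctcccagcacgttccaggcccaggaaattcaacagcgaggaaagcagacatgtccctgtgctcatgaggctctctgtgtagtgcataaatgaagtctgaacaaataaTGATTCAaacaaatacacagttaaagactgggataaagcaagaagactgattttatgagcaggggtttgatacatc
ESR1, chr6:151805455-151805754, plus strand: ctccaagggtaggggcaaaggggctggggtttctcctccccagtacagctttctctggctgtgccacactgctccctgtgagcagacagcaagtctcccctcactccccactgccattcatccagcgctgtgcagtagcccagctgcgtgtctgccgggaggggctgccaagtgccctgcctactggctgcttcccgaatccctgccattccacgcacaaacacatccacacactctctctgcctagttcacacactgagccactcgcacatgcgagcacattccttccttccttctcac
PGR, chr11:101129764-101130063, minus strand: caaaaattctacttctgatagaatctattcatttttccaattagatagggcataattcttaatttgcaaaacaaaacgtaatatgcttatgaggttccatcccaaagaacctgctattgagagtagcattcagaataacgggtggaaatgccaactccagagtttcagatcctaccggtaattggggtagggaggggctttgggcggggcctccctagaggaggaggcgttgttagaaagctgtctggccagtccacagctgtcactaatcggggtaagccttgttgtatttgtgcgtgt
In this print IL23A, VTCN1, HBD, CYP19A1 and ABCC11 hold the motif and FREY1, HK3, GNA14, ENPP5, ESR1 and PGR do not.

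TGANTCA occurred in 25 of the 117 windows (21.4%), and in 24 of these 25 a match lay inside the member itself. The windows were chosen because a member touches them, and how much of each window its member covers was not counted. TGANTCA was in 7.69% of all 34789 windows and in 6.33% of the 16719 windows touched by regions present in all 9 MDA-MB-231 lists. Windows touched by regions open only at day 10 held it in 12 of 39 (30.8%), and those open only at day 1 in 4 of 41 (9.76%). The TEAD motif GGAATG was in 28 of the 117 windows (23.9%), against 14.1% of all windows. The GC box GGGCGG, the site of SP and KLF factors, was rarer, in 20.5% of member windows and 45.0% of all windows. The ETS motif CCGGAAG was in 2 of 117 member windows (1.71%) and in 10.2% of all windows. The RUNX motif TGTGGTT was in 5.98% against 4.28%, and TATAAA in 16.2% against 11.6%. All motifs were searched on both strands, and none of these motifs contains another, although the TEAD and ETS motifs share GGAA. A match is a string of letters and no measured binding.

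Base composition differed along with the motifs. Member windows had a median GC content of 52.3% and a median of 5 CG dinucleotides, against 58.7% and 14 over all windows. Windows touched by regions present in all 9 lists had medians of 65.3% and 26. Windows with no MDA-MB-231 region had medians of 49.0% and 4, and are thus closer in composition to the member windows than all windows are. They held TGANTCA in 8.36%, GGAATG in 16.2%, the GC box in 22.3%, the ETS motif in 4.04%, TGTGGTT in 5.44% and TATAAA in 18.0%. Against this set the member windows were higher in the AP-1 share (21.4%) and the TEAD share (23.9%), within 2 percentage points in the GC box, RUNX and TATA shares, and lower in the ETS share. How far base composition goes into the motif shares was not tested.

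The members at start sites were mostly short. Of the 65 members at coding starts, the length covered by peaks, averaged over the 6 treated lists, had a median of 508 bp and ran from 215 bp (ABCC11) to 2641 bp (FREY1). The lists give peaks and no reads, so covered length is the size of each value here.

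FREY1, a gene needed for sperm to fuse with the egg, had the largest member at a coding start. Its region (chr11:45906121-45910119, also touching MAPK8IP1 and PEX16) was covered over 2395, 2843 and 3975 bp in the day 1 lists and 1479, 3347 and 1807 bp in the day 10 lists. The 2 times overlapped, and in PC3 it had a peak in 1 of 9 lists. HK3, a hexokinase of myeloid cells, was covered over 1702, 1948 and 2020 bp at day 1 and 1292, 802 and 822 bp at day 10. Every day 1 list lay above every day 10 list, but the difference did not pass the test (log2 -0.76, SE 0.76, adjusted p = 0.867 in limma). All 6 groups share the spread of that fit, and PC3 had a peak there in 1 list, of 1899 bp. With only the MDA-MB-231 groups the adjusted p was 0.142. SPON2, which encodes a secreted matrix protein, and GNA14, a G protein alpha subunit, had members of 1312 ± 50.1 and 1105 ± 182 bp at day 1 (SD, n = 3), and neither had a peak in any PC3 list.

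IL23A, which encodes the p19 subunit of interleukin 23, carried the motif 77 bases before its start. Its member (chr12:56337786-56340152) was covered over 716, 1054 and 1239 bp at day 1 and 661, 713 and 1232 bp at day 10, so the times overlapped. It was open in untreated PC3 as well, over 1279, 953 and 961 bp. ENPP5, a membrane phosphodiesterase-like protein, was similar at both times (741 to 834 bp at day 1, 807 to 826 bp at day 10) and had peaks in all 9 PC3 lists.

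VTCN1, the immune checkpoint ligand B7-H4, had the largest called rise among coding start sites. Its member (chr1:117210426-117211477), with the motif just after the annotated start, was covered over 361, 430 and 348 bp at day 1 and 575, 911 and 943 bp at day 10. The groups did not overlap, and the difference passed the test (log2 1.05, SE 0.21, adjusted p = 0.00531). In all, 4 of the 65 members at coding starts (6.15%) were called higher at day 10 and 0 lower. This is near the 5.78% higher and 1.14% lower of all members, and of all regions tested 3.34% were higher and 3.21% lower. The others were at KRTAP12-2 (log2 0.37), ARHGEF38 (0.27) and C5orf46 (0.75). With only the MDA-MB-231 groups in the fit their adjusted p in limma was 0.141, 0.365 and 0.321, so none of the 3 was called, and with the replicate number as a block ARHGEF38 was not called (adjusted p = 0.066). The member at GPBAR1 fell from 1105, 1267 and 1400 bp at day 1 to 304, 404 and 266 bp at day 10 (log2 -1.55). It was not called in the fit of all 6 groups (SE 0.67, adjusted p = 0.274 in limma). With only the MDA-MB-231 groups it was called lower (adjusted p = 0.000987).

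The estrogen and progesterone receptor genes, whose proteins define receptor-positive breast cancer, each held 1 member at a start site. The ESR1 member (chr6:151804664-151805951) was covered over 428, 421 and 517 bp at day 1 and 330, 412 and 487 bp at day 10, and it was open in every PC3 list, over 584 to 1273 bp. The PGR member (chr11:101129106-101129930) was covered over 734, 574 and 697 bp at day 1 and 706, 797 and 540 bp at day 10. In PC3 the PGR region had no peak in untreated or day 10 lists and 497 bp in 2 of 3 day 1 lists. Neither region passed the test of day 10 against day 1 in limma (adjusted p = 1.0 for both). CYP19A1, the aromatase that makes estrogens, had one of the smallest members, with 194 to 343 bp at day 1 and 177 to 207 bp at day 10.

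HBD, CCR2 and IL7R are genes of blood and immune cells and were picked after their values were seen. HBD, the delta globin gene, had 427, 457 and 513 bp at day 1 and 391, 491 and 360 bp at day 10, and no peak in any PC3 list. The chemokine receptor gene CCR2 had 443, 451 and 437 bp at day 1 and 398, 232 and 249 bp at day 10, also with no PC3 peak. Day 10 lay below day 1 at CCR2 without overlap, with an adjusted p of 0.22 in limma. IL7R, the interleukin 7 receptor, had 286, 290 and 375 bp at day 1 and 314, 471 and 524 bp at day 10 and was open in all 9 PC3 lists. Of the 65 members at coding starts, 33 had peaks in all 9 PC3 lists and 13 in none. The plot of covered length shows the values of 15 of these members.

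**Figure D1:**
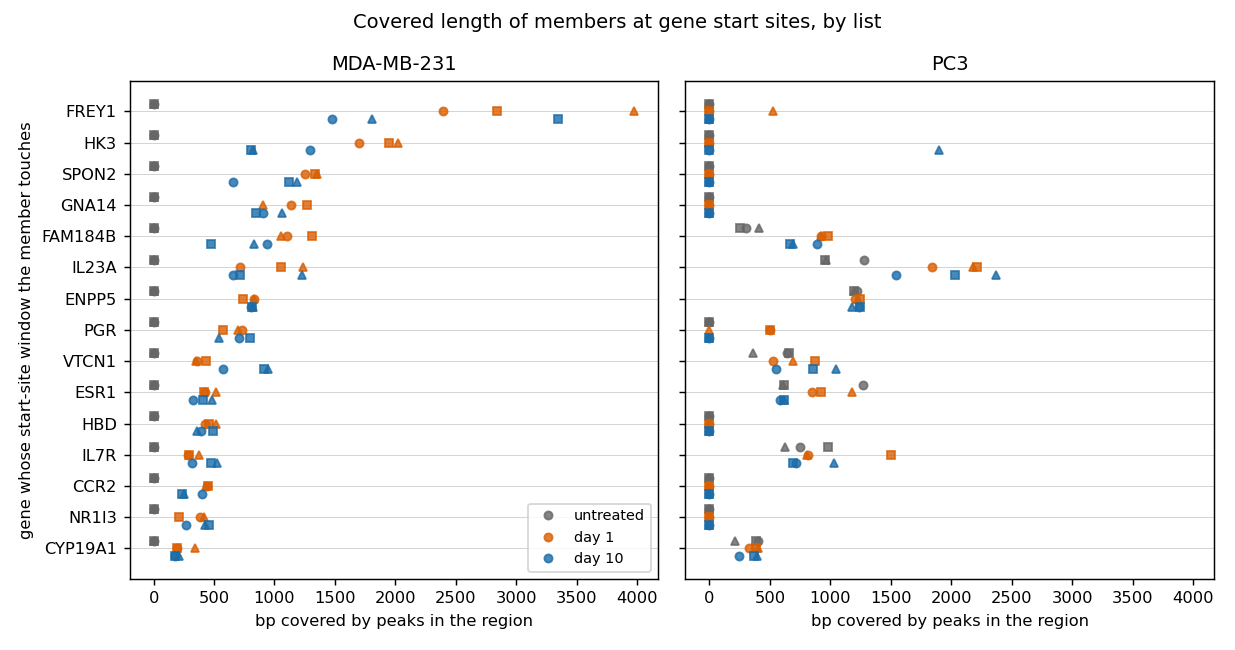
Covered length in bp (x axis) of 15 members at coding start sites (y axis), in the 9 lists of MDA-MB-231 (left) and of PC3 (right), with colour for state and circle, square and triangle for replicates 1, 2 and 3. Untreated MDA-MB-231 lists are at 0 by the rule, HBD and CCR2 are at 0 in every PC3 list, and ENPP5 and ESR1 are above 500 bp in every PC3 list.

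The defining markers of the line were checked in the same windows. VIM, AXL, ZEB1 and CD44, which mark its mesenchymal state, had a peak in every MDA-MB-231 list. ESR1 and PGR had none in the 3 untreated lists. PTPRC, which marks blood cells, had none in any list, and the endothelial receptor gene KDR had a peak in all 18 lists. Lists held from 82392 to 165535 peaks covering 54.4 to 82.3 Mb. The 3 untreated MDA-MB-231 lists held 82392 to 98777 peaks and the 6 treated ones 100564 to 133526, without overlap, and depth is unknown. The part of list length in the choice of members was not tested.

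Member peaks were narrow and low within their own lists. The median covered length per member was 299, 350 and 357 bp in the day 1 lists and 291, 335 and 359 bp in the day 10 lists. Ranked by area, which is the authors' summed signal under each peak, the median member peak sat at percentile 40.1, 22.0 and 35.1 of its day 1 list and 37.3, 32.3 and 43.2 of its day 10 list. All 6 medians were below the middle of the list. Just outside the rule, the 4547 regions with no untreated and 5 of 6 treated lists were lower and shorter, with a median area percentile of 23.4 and 234 bp covered, against 35.5 and 340 bp for the members. The 3531 regions with 1 untreated and 6 of 6 treated lists had 40.7 and 331 bp.

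Member widths overlapped between day 1 and day 10. Mean member width was 335 ± 31.7 bp at day 1 and 328 ± 34.5 bp at day 10 (SD, n = 3 lists), with a 2-sided exact permutation p of 0.8. Divided by the median width of all peaks of the list, the values were 0.854, 0.671 and 0.778 at day 1 and 0.874, 0.794 and 0.895 at day 10. The ratio was higher by 0.0868 at day 10, the groups overlapped and the exact permutation p was 0.2, where 3 against 3 lists cannot go below 0.1. Taken as pairs by replicate number, day 10 was higher in 3 of 3, by 0.0196, 0.123 and 0.118, with an exact paired permutation p of 0.25, the smallest that 3 pairs allow. With the 50000 peaks of largest area of each list the difference was -0.0499. The plot of member peaks by list gives all 3 measures.

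**Figure D2:**
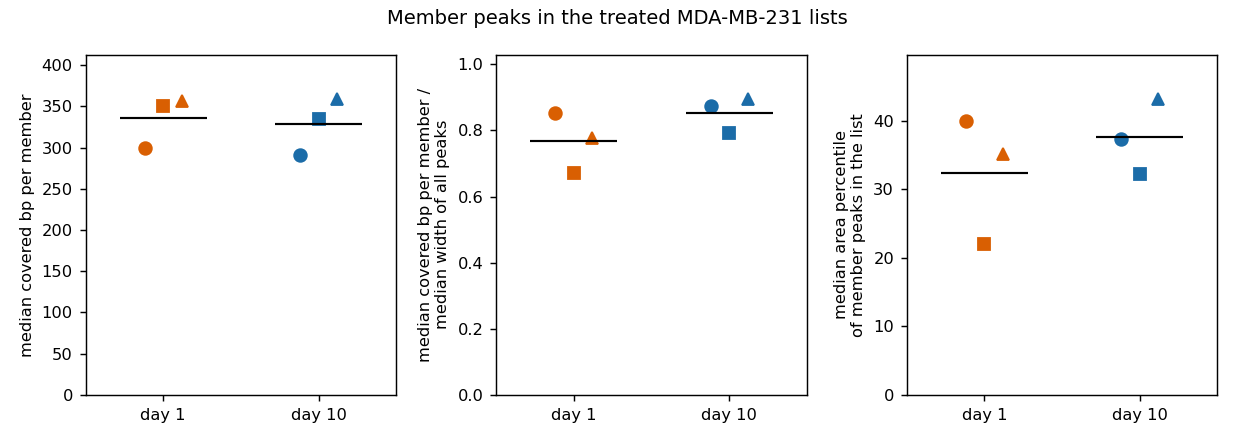
Member peaks in the 3 day 1 and 3 day 10 MDA-MB-231 lists: median covered bp per member (left), the same divided by the median width of all peaks of the list (middle), and median area percentile in the list (right). Circles, squares and triangles are replicates 1, 2 and 3, bars are group means, and the groups overlap in each panel.

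Members lay more often outside gene bodies, and at the median farther from gene ends, than the accessible sites of the line. Outside protein-coding gene bodies were 3053 members (57.8%), against 45.9% of the 149754 regions of the line and 40.4% of the 65125 regions present in all 9 lists. Within 1 kb of either end of a gene were 221 members (4.19%), against 11.8% and 20.2%. A start-site window was touched by 1.97% of members, 8.49% of the line's regions and 17.1% of the constant ones. The median distance to the nearest gene end was 38.1 kb for members and 23.5 kb for the line. The nearest site open in all 3 untreated lists was a median of 18.0 kb away for members. It was 11.1 kb away for those of the line's regions that were not themselves open in all 3 untreated lists.

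Regions open at only 1 time lay on either side of the members. The 3313 regions open only at day 10 were outside gene bodies in 62.7% and within 1 kb of a gene end in 1.99%. The 2495 regions open only at day 1 were outside gene bodies in 41.3% and within 1 kb of a gene end in 10.1%. Gene-poor windows, those of 1 Mb holding no more than 1 protein-coding gene, contained 11.7% of members, 15.0% of day 10 regions, 6.09% of day 1 regions and 7.89% of the line's regions. These shares are descriptions without a test, since regions of the same lists are not replicates. The plot of positions sets the 5 sets side by side.

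**Figure D3:**
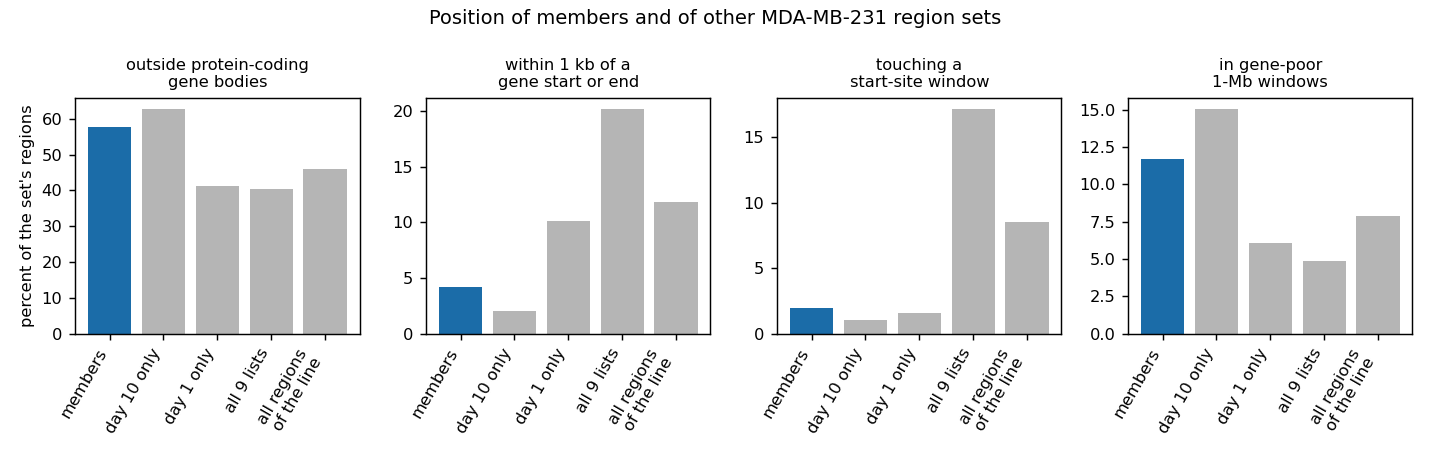
Percent of regions (y axis, a scale of its own in each panel, from 0) outside protein-coding gene bodies, within 1 kb of a gene start or end, touching a start-site window, and in gene-poor 1-Mb windows. In each panel but the third, members (blue) lie between regions open only at day 10 and those open only at day 1, and in the third, members stand at 1.97% with both of those lower.

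Members were spread over all chromosomes. They made up between 1.55% of the regions of the line on chromosome 22 (40 of 2587) and 4.63% on chromosome 5 (411 of 8887). The nearest other member was a median of 121 kb away, and 399 members (7.56%) had another within 10 kb. The densest 1-Mb window was chr7:155000001-156000000, with 15 members among 114 regions. It holds SHH, the hedgehog ligand, the homeobox gene EN2, CNPY1, INSIG1 and the serotonin receptor gene HTR5A. The next were chr20:59000001-60000000 with 12 of 72 (EDN3, which encodes endothelin 3, and PHACTR3) and chr6:3000001-4000000 with 12 of 115 (SLC22A23 and TUBB2B). In chr6:21000001-22000000, which holds SOX4 and CDKAL1, 11 of 50 regions were members. In chr5:35000001-36000000, with the prolactin receptor gene PRLR, IL7R and SPEF2, 11 of 59 were.

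The 10 members of largest covered length were led by a region at NEAT1, the long noncoding RNA that scaffolds nuclear paraspeckles (chr11:65443628-65447638). It was covered over 3464, 3504 and 3603 bp at day 1 and 3581, 3369 and 4011 bp at day 10, and its peaks ranked at a median area percentile of 92.6. In PC3 it had a peak in 1 of 3 untreated, 3 of 3 day 1 and 3 of 3 day 10 lists. It was called higher at PC3 day 1 than in untreated PC3 (log2 2.72, SE 0.77, adjusted p = 0.0317 in limma). With only the PC3 groups in the fit it was not (adjusted p = 0.187). A region in JPH2, which encodes a junctophilin of cardiac muscle, was covered over 1691, 1766 and 1702 bp at day 1 and 1165, 1620 and 1449 bp at day 10, at a median percentile of 84.8. The region in ZBTB48, a telomere-binding zinc finger protein, had 2782 ± 691 bp at day 1 and 1756 ± 459 bp at day 10. In NEK6, a mitotic kinase, coverage was 2116, 2848 and 2888 bp at day 1 and 571, 815 and 865 bp at day 10, with no overlap and an adjusted p of 0.166 in limma. PC3 had a peak there in 1 list, of 848 bp, and with only the MDA-MB-231 groups in the fit the adjusted p was 0.000266. A region 2.08 kb from UBE2G2, a ubiquitin-conjugating enzyme, fell from 2952 ± 666 to 1069 ± 228 bp (log2 -1.22, SE 0.26, adjusted p = 0.0105). Fitted on the 2 groups alone its adjusted p was 0.079. The others of the 10 were at FREY1, in NSG1 and TBXAS1, and near SLX9 and LOC124904970.

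Of 19821 protein-coding genes, 2583 (13.0%) had a member in the gene body or within 10 kb of it. Long genes had one more often: 6.78% of genes shorter than 30 kb and 49.9% of those of 300 kb or more. As a share of the regions in and near them, members rose from 2.18% to 3.87% over the same classes. MSI2, an RNA-binding protein of stem cells, had the most members, with 7 of its 36 regions. BTBD9 and PTPRN2, a receptor-type phosphatase of secretory granules, had 6 each. SCNN1B, the beta subunit of the epithelial sodium channel, had 5 of 14, and COL23A1, TNS1, SLC22A23 and SPOCK1 had 5 each. All 4 regions at CARD18, a short caspase-1 inhibitor gene, were members, as were 4 of 7 at ARHGAP8.

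At MSI2 and SPOCK1 the members of 1 gene did not move alike. At MSI2, 6 of the 7 lay in the gene body. The member at chr17:57605240-57605781 was nearly even, with 471, 492 and 542 bp at day 1 and 452, 509 and 435 bp at day 10, and it had no PC3 peak. The member at chr17:57518678-57519883 had 399, 381 and 501 bp at day 1 and 889, 850 and 860 bp at day 10 without overlap (log2 1.03). It was not called in the fit of all 6 groups (SE 0.48, adjusted p = 0.323), in which untreated PC3 had 450, 0 and 463 bp, and was called with only the MDA-MB-231 groups (adjusted p = 0.000911). At SPOCK1, which encodes the proteoglycan testican-1, the member at chr5:137470201-137471241 rose from 296, 321 and 257 bp to 619, 731 and 790 bp (log2 1.20, SE 0.09, adjusted p = 1.75e-07). The other SPOCK1 member called higher went from 421, 432 and 457 bp to 485, 870 and 861 bp (adjusted p = 0.0124, and 0.0902 with only the MDA-MB-231 groups). At SCNN1B 1 of 5 members was called higher (log2 0.31, SE 0.08, adjusted p = 0.024 in limma, and 0.425 with only the MDA-MB-231 groups). It went from 310, 333 and 362 bp to 350, 368 and 464 bp. The others there had log2 values of 0.07, 0.23, 0.26 and 0.32, so the called member did not stand apart in size.

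Among genes with at least 10 regions, the largest shares of members were at ZNF618 (4 of 10), PLD5 and SPEF2 (4 of 11 each), SCNN1B, and JAKMIP1 (4 of 12). ATP13A4 and CTNND2, a catenin of neurons, had 4 of 13 each. PCSK6, a proprotein convertase, had 3 of 10, PRR5-ARHGAP8 4 of 14 and FBXO32, a muscle ubiquitin ligase, 3 of 11. PRR5-ARHGAP8 is a read-through gene that shares its 4 members with ARHGAP8.

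Members were then counted at the genes of 16 lists. In all, 2807 of the 97443 regions in or within 10 kb of protein-coding genes were members (2.88%), which is the share each list is set beside. Lists differ in gene length, and no list was tested.

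The AP-1 genes themselves had no members. None of 88 regions at 14 FOS, JUN, ATF3, BATF and MAF family genes passed the full rule. Regions that only the PC3 condition dropped were not counted. The TEAD and YAP list had 3 of 164 regions, near TEAD1, AJUBA and LATS2, a kinase that restrains YAP, and the RUNX and ETS list had 1 of 203, in ETS1. At the 18 housekeeping genes 0 of 72 regions were members.

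At secreted-factor, damage-response and mitotic genes the counts were 3 or fewer a list. Secretory inflammatory genes had 3 of 122 regions (2.46%), near the all-gene share, of which 2 were near MMP10, a stromelysin that degrades matrix, and 1 near the chemokine gene CXCL3. The larger MMP10 member (chr11:102762353-102764003) rose from 360, 347 and 366 bp at day 1 to 738, 813 and 857 bp at day 10, without overlap (log2 1.13, SE 0.16, adjusted p = 0.00029), and it was open in all 9 PC3 lists. The p53 targets had 2 of 105 (1.90%), 0.23 kb from GADD45A, a growth arrest gene, and within SESN1, a sestrin. The GADD45A member had 444, 757 and 887 bp at day 1 and 445, 477 and 928 bp at day 10, with no separation of the times. Fanconi and homologous recombination genes had 1 of 115 (0.870%), 0.336 kb from XRCC2, with 345, 360 and 372 bp at day 1 and 323, 321 and 336 bp at day 10. Mitotic genes had 1 of 96 (1.04%), near the kinesin gene CENPE.

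Drug transport and glutathione genes had 4 of 147 (2.72%), near the all-gene share. They were 2 at TXNRD1, a thioredoxin reductase, 1 in GCLC, which makes the glutathione precursor, and 1 in SLC31A2, a copper transporter. Chromatin and lamina genes had 4 of 307 (1.30%), in HDAC9 and DNMT3B and near HDAC1. The member in the flank of HDAC1 has an end of another gene, MARCKSL1, as its nearest gene end. It rose from 258, 380 and 313 bp to 438, 497 and 431 bp (log2 0.56, SE 0.16, adjusted p = 0.0468, and 0.253 with only the MDA-MB-231 groups). Mesenchymal genes had 3 of 183, at CDH2, SNAI2 and TGFB2, and epithelial genes 1 of 123, near CDH3. The CDH2 member, 6.28 kb from the gene, was covered over 582, 664 and 629 bp at day 1 and 498, 542 and 624 bp at day 10, while the start-site windows of CDH2 had no peak in any MDA-MB-231 list and peaks in all PC3 lists.

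Channel, synapse, blood and vascular lists had the larger shares. Voltage-gated and ligand-gated channel genes had 25 of 479 regions (5.22%) at 13 of 24 genes, led by DPP6, an auxiliary subunit of potassium channels (4), the calcium channel gene CACNA1B and the ryanodine receptor gene RYR3 (3 each). Neuronal adhesion and synapse genes had 23 of 579 (3.97%) at 14 of 25 genes, led by NTM and TENM2 (3 each). These genes are long, with list medians of 462 and 959 kb against 24.5 kb over all genes, and members took 3.87% of the regions of genes of 300 kb or more. In CACNA1B the member at chr9:138009666-138010964 was covered over 1058, 919 and 1285 bp at day 1 and 1210, 898 and 1068 bp at day 10.

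Haematopoietic genes had 4 of 70 regions (5.71%) and endothelial and muscle genes 5 of 104 (4.81%), both from short lists with few regions. The haematopoietic members were at CD3D, a T-cell receptor chain, ITGAM, SPI1, which encodes the factor PU.1, and within 10 kb of HBB, the last being the member at the HBD start. The CD3D member (chr11:118338465-118339192) had 495, 582 and 708 bp at day 1 and 483, 528 and 557 bp at day 10 and no PC3 peak. The vascular and muscle members were at VWF, TEK, TIE1, FLT1 and MYH7. The TIE1 member rose from 253, 200 and 317 bp to 739, 513 and 753 bp (log2 1.25, SE 0.17, adjusted p = 0.000168). The plot of the 16 lists gives each share.

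**Figure D4:**
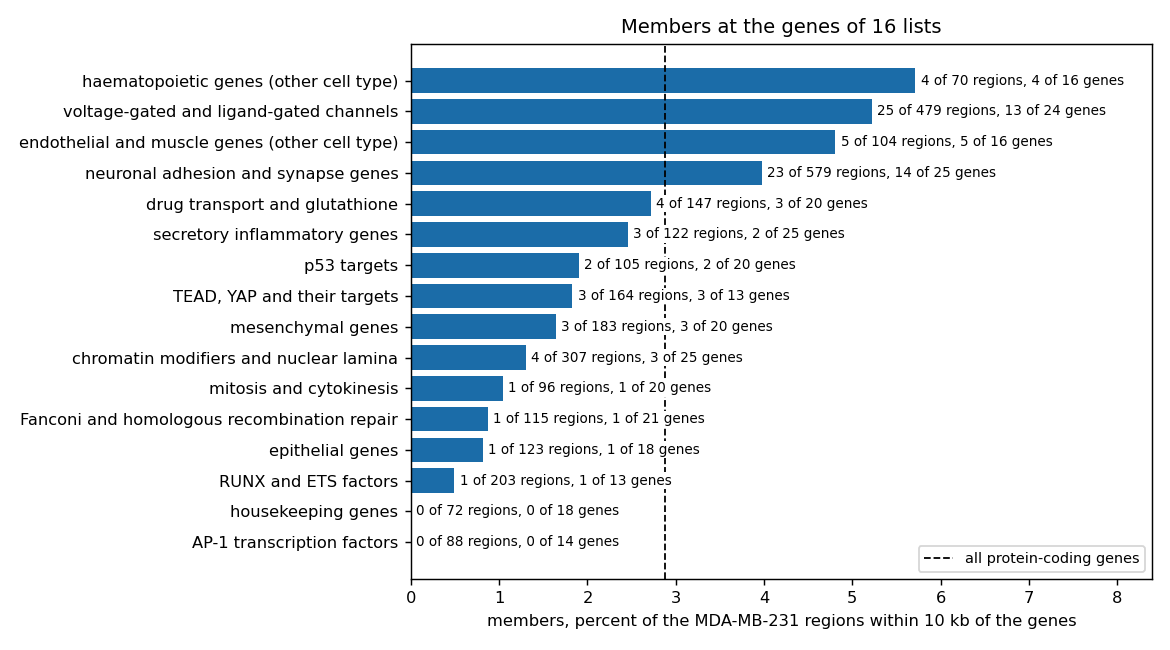
Members as a percent of the MDA-MB-231 regions in or within 10 kb of the genes of 16 lists (bars), with the counts of regions and genes beside each bar and the share over all protein-coding genes as a dashed line. Haematopoietic, channel, endothelial and neuronal adhesion lists lie to the right of the line, and AP-1 and housekeeping genes stand at 0.

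Day 10 against day 1 asks which members widened or narrowed after drug removal, which the rule did not fix. In limma, on log2 of the scaled covered length plus 100 bp over 180299 regions, 305 members (5.78%) were higher at day 10 and 60 (1.14%) lower. Over all regions tested, 3.34% were called higher and 3.21% lower. Many of those regions have no peak at either time, so the members were also set beside the 79033 regions with a peak in all 6 treated lists, a set chosen after seeing the data that includes them. There 1.14% were higher and 1.23% lower. The median difference was 0.12 on the log2 scale for members and 0.07 for these regions. Scaling moved both sets. Without scaling the lists to equal covered length, 112 members (2.12%) were higher and 137 (2.60%) lower with a median of -0.01, against 0.326% and 1.91% with a median of -0.07 in the 79033 regions and 2.65% and 3.47% of all regions. With median-of-ratios scaling 198 members (3.75%) were higher and 88 (1.67%) lower, against 0.71% and 1.76% of the 79033 regions and 2.94% and 3.42% of all. Member values in the untreated lists are all 0 and add degrees of freedom without spread. Fitted on the 2 groups alone, an alternative chosen after seeing the data, 94 members (1.78%) were higher and 34 (0.644%) lower, against 2.16% and 2.45% of all regions and 0.543% and 0.984% of the 79033. With the replicate number as a block 228 (4.32%) were higher and 56 (1.06%) lower, against 3.17% and 2.97% of all regions. Leaving out day 1 replicate 3 gave 170 higher (3.22%, against 2.43% of all regions). Leaving out day 10 replicate 2 gave 195 higher (3.69%, against 3.25%), and leaving out day 1 replicate 1 gave 121 lower (2.29%, against 3.24%). In covered bp without scaling, 721 members (13.7%) had all 3 day 10 lists above all 3 day 1 lists, where 5.41% of all regions tested and 3.91% of the 79033 did. Day 10 lay wholly below day 1 at 625 members (11.8%), against 11.2% and 16.5%.

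The 5 largest rises among called members were in AOAH, which inactivates bacterial lipopolysaccharide, near HGSNAT, a lysosomal enzyme gene, and in MARCO, HAO2 and DAAM1. In AOAH (chr7:36604430-36605857) coverage was 524, 325 and 320 bp at day 1 and 1062, 1173 and 1423 bp at day 10 (log2 1.598, SE 0.32, adjusted p = 0.00574). In MARCO, a scavenger receptor of macrophages (chr2:118973643-118974503), it was 277, 217 and 243 bp and then 728, 697 and 713 bp (log2 1.38, SE 0.10, adjusted p = 8.22e-08). In DAAM1, a formin that shapes actin (chr14:59280624-59282960), it was 224, 250 and 275 bp and then 621, 607 and 855 bp (log2 1.32, SE 0.09, adjusted p = 7.2e-08). All day 10 lists lay above all day 1 lists at each of the 5. Each had peaks in all 9 PC3 lists, and in untreated PC3 the MARCO region was covered over 687 to 725 bp and the DAAM1 region over 1336 to 1357 bp.

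The 5 largest falls among called members were in TPD52L2, PCNX3, PHOSPHO2-KLHL23 and SPMIP2 and near SPADH. In TPD52L2, of the tumour protein D52 family (chr20:63888906-63890434), coverage was 1206, 1333 and 1375 bp at day 1 and 305, 352 and 331 bp at day 10 (log2 -1.58, SE 0.13, adjusted p = 4.38e-07). In PCNX3 (chr11:65634937-65636457) it was 1404, 1443 and 1259 bp and then 261, 572 and 306 bp (log2 -1.53, SE 0.19, adjusted p = 6.14e-05, and 0.0724 on the 2 groups alone), with no PC3 peak. In SPMIP2 (chr4:158929997-158930874) it was 666, 866 and 871 bp and then 205, 190 and 217 bp (adjusted p = 0.00537). Day 10 lay below day 1 in every list at each of the 5. All remained peaks at day 10, as the rule requires.

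PC3 shows whether regions gained by MDA-MB-231 were open in a second line. A peak in all 9 PC3 lists was present at 1970 of the 6493 regions before the PC3 condition (30.3%), against 32.8% of all merged regions. In none of the 9 was one present at 1568 (24.1%), against 17.5% of all merged regions, which include sites of PC3 alone, and 27.2% of the line's regions. All 3 untreated PC3 lists had a peak at 2059 of the 6493 (31.7%), against 38.3% of all merged regions and 45.7% of the line's. The PC3 condition dropped none of these 3 groups of regions, so in the 5278 members they make up 37.3%, 29.7% and 39.0%, shares that the rule itself raised.

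For a comparison within PC3, the 6493 regions before the PC3 condition were used, since that condition read the day 10 and untreated PC3 lists. The share of the 6493 regions with a peak, divided by the share of all merged regions with a peak, was 0.831, 0.759 and 0.893 in the untreated lists. At day 1 it was 1.02, 1.08 and 1.09. The means were 0.828 ± 0.0668 and 1.06 ± 0.0364 (SD, n = 3), higher by 0.232 at day 1. The groups did not overlap, and the exact permutation p was 0.1, the smallest that 3 against 3 lists allow. The untreated PC3 lists held 106577 to 114731 peaks and the day 1 lists 115050 to 164802, also without overlap. With the 50000 peaks of largest area of each list the difference was 0.283. How far list length goes into the ratio was not tested. The day 10 ratio was 1.12 ± 0.0497. It is described without a test because the condition on PC3 was set on that contrast. In the final members the day 1 and untreated ratios were 1.04 ± 0.0649 and 1.02 ± 0.0821. The share of final members with a peak, not divided by that of all regions, was 57.5 ± 5.07% at day 1 and 46.3 ± 2.53% in untreated lists, without overlap. These are descriptions, since the condition read the untreated lists and removed only regions with no peak in them. The plot of PC3 lists shows both sets.

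**Figure D5:**
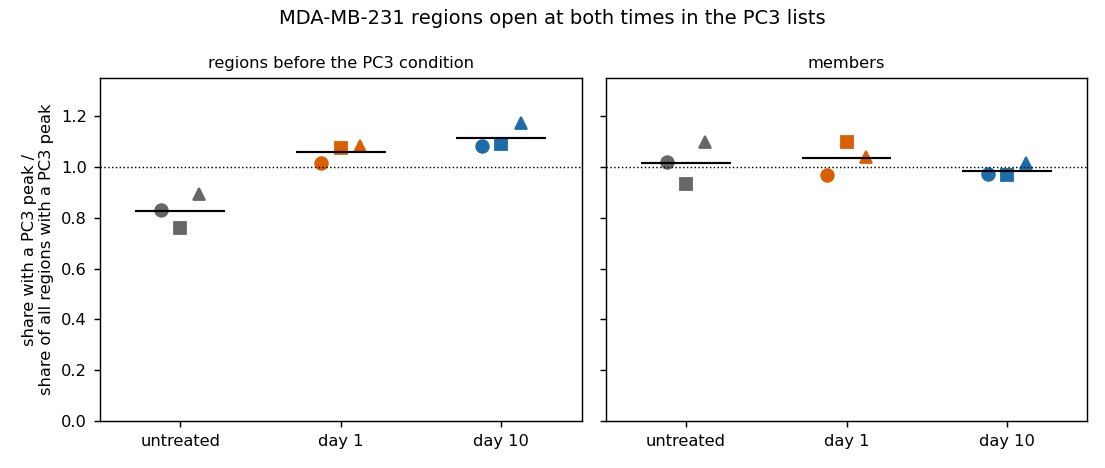
Share of regions with a PC3 peak divided by the share of all merged regions with one (y axis), in each untreated, day 1 and day 10 PC3 list, for the 6493 regions before the PC3 condition (left) and the 5278 members (right). Circles, squares and triangles are replicates 1, 2 and 3, bars are group means and the dotted line is 1. The untreated lists lie below the day 1 lists on the left and overlap them on the right, where the PC3 condition has removed regions without an untreated PC3 peak.

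Region by region, limma called 1258 of the 6493 regions before the PC3 condition (19.4%) higher and 163 (2.51%) lower at PC3 day 1 against untreated PC3, where 8.82% and 6.36% of all regions tested were. Without scaling 1395 (21.5%) were higher and 6 (0.0924%) lower, against 10% and 0.938% of all regions. Under median-of-ratios scaling 1403 (21.6%) were higher and 14 (0.216%) lower, against 10% and 1.21% of all regions. For a fit on the PC3 groups alone they were 598 (9.21%) and 117 (1.80%), against 4.02% and 4.20% of all regions. Of the final members 436 (8.26%) were higher and 163 (3.09%) lower, a share that the rule lowered, since it dropped regions absent from untreated PC3 and present at PC3 day 10. Without scaling 622 final members (11.8%) were higher and 6 (0.114%) lower, against 10% and 0.938% of all regions. Under median-of-ratios scaling 600 (11.4%) and 14 (0.265%) were, against 10% and 1.21%. For the PC3 groups alone 62 (1.17%) and 117 (2.22%) were, below the 4.02% and 4.20% of all regions. Final members higher fell to 258 (4.89%) and 230 (4.36%) without day 1 replicates 1 and 3 and to 248 (4.7%) without untreated replicate 2. Over all regions the share fell as well, to 5.5%, 5.34% and 5.66%. Final members lower fell to 62 (1.17%) and 51 (0.966%) without day 1 replicates 1 and 3, against 3.63% and 3.1% of all regions. They fell to 93 (1.76%), 50 (0.947%) and 54 (1.02%) without untreated replicates 1, 2 and 3, against 4.15%, 3.74% and 3.33%.

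Among the members that the PC3 condition left, the largest called PC3 rises were at SLC25A47 and WARS1, in POLR1A, the largest subunit of RNA polymerase I, in SOX13, near KCTD8 and at KRTAP10-11. With only the PC3 groups in the fit, POLR1A was called (adjusted p = 0.045 in limma) and the other 4 were not (0.0501 to 0.0821). In SOX13, an SRY-family factor (chr1:204125686-204127269), no untreated PC3 list had a peak and the day 1 lists were covered over 955, 976 and 1134 bp (adjusted p = 0.00515). In PC3 at day 10 it had a peak in 1 of 3 lists, of 1332 bp. In MDA-MB-231 the same region had 1529, 1380 and 1437 bp at day 1 and 893, 1326 and 917 bp at day 10. In POLR1A (chr2:86020982-86022455) the PC3 values were 0 bp in untreated lists and 908, 1463 and 854 bp at day 1 (adjusted p = 0.00119). A peak in 3 of 3 PC3 day 1 lists and 0 of 3 untreated ones was present at 619 of the 6493 regions before the PC3 condition (9.53%), against 3.51% of all merged regions, and at the 82 members that the condition left.

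Falls in PC3 at day 1 were smaller in extent. GCNT3, a mucin glycosyltransferase gene whose start-site window the member touches (chr15:59611429-59611949), had 408, 505 and 453 bp in untreated PC3 and 261, 254 and 263 bp at day 1 (log2 -0.84, SE 0.14, adjusted p = 0.00156). In MDA-MB-231 the GCNT3 member went from 0 in untreated lists to 194, 219 and 213 bp at day 1. A region 52.7 kb from IVNS1ABP had 285, 301 and 291 bp in untreated PC3 and no peak at day 1 (adjusted p = 0.00133). Of the 6493 regions 1 (0.0154%), which is a member, had a peak in 3 of 3 untreated and 0 of 3 day 1 PC3 lists, against 0.331% of all merged regions.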

How the data were processed

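ATAC-seq libraries of 54 samples came from MDA-MB-231 and PC3 cells, untreated or 1 and 10 days after cisplatin removal, per the labels. Tools in the submitters' processing notes are the peak caller Genrich 0.6.2, the aligner Bowtie2 2.3.5.1, SAMtools 1.6, Picard, R 4.4.1 and FastQC 0.12.1. The 18 deposited lists hold 1 biological replicate each, and the sources used here do not give how its 3 experimental replicates were combined. The deposited column 7 is a score, read from its values as the authors' peak area (lowest value 200), and column 8 is the deposited -log10 p-value of the peak (lowest 2.52). No read counts are given, so the depth behind each list is unknown and may differ between lists. Lists were assigned to groups by names that match sample titles.

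Overlapping or touching peaks were merged, and covered bp were summed per region and list. Covered bp were scaled to the mean total covered length, and limma 3.58.1 (R 4.3.3) was fitted to log2(bp + 100) for the 180299 regions with a peak in at least 3 lists. All 6 groups were in 1 fit, with a variance trend and 12 residual degrees of freedom, and p-values were adjusted by Benjamini-Hochberg over all regions, with a threshold of 0.05. Fold changes are on that log2 scale and understate changes of short regions. On simulated data with 200 changed regions for day 10 against day 1, 36.5%, 55% and 91.5% were recovered at log2 changes of 1, 2 and 4. Of the calls made 3.95%, 5.98% and 6.63% were false. Each simulated region had normal noise of 1 spread around 1 mean for all 6 groups. Members have untreated MDA-MB-231 lists at 0 by the rule, which was not simulated, so these shares need not hold for them. Values per list were compared by 2-sided exact permutation tests (20 relabellings). Gene positions (19821 protein-coding genes) and start-site windows come from RefSeq tables of GRCh38.p14, without exons. The submitters' notes name the builds hg38 and GRCh38. The window table covers 15812 of the 19821 genes.

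The members, gene lists and tests were chosen with earlier results of these data known. The named members were the 10 of largest covered length, the 10 largest at coding starts, the 10 genes with most members and the 10 with the largest share, the 5 densest windows, up to 4 genes per list, and the 5 largest rises and falls of each comparison. The text gives a selection of these. Deviations from the group means of same-numbered lists correlated at 0.345, 0.253 and 0.164 for MDA-MB-231 day 10 and day 1, so the numbers were taken to pair those lists. The labels do not state this pairing. Alternatives were other peak filters, merging and overlap rules, pseudocounts, scalings, list minimums, groups in the fit, the replicate block and leaving out each list.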

Additional observations from a re-analysis of the deposited data

How the results depend on the processing

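Peak filters moved the number of members most: 1291 with the 50000 peaks of largest area, 2408 with the upper 50% by area and 652 at a -log10 p of at least 5, against 5278. The share within 1 kb of a gene end was then 5.96%, 5.65% and 5.52%, and the share outside gene bodies 56.0% with the upper 50% by area. Without 1 list at a time, members numbered 5361 to 7567, with 56.5% to 58.8% outside gene bodies and 3.67% to 4.37% near a gene end. For day 10 against day 1, members called higher and lower were 112 and 137 without scaling, and 198 higher with median-of-ratios scaling. With only the MDA-MB-231 groups in the fit they were 73 (1.38%) and 28 (0.531%), against 2.09% and 1.99% of all regions. Of the 79033 regions open in all 6 treated lists, 0.464% and 0.787% were called in that fit. Members were thus called higher less often there than all regions, and more often than the 79033. They were 94 and 34 with only the 2 groups compared. Without 1 list they were 170 to 366 (3.22% to 6.93%) and 53 to 121 (1% to 2.29%), against 2.43% to 3.81% and 2.4% to 3.51% of all regions. For PC3 day 1 against untreated, lower calls were 6 (0.114%) without scaling, 14 (0.265%) with median-of-ratios scaling and 97 (1.84%) with all regions tested. Of all regions 0.938%, 1.21% and 4.25% were. Higher and lower calls were 167 (3.16%) and 20 (0.379%) with the 50000 peaks, against 1.16% and 1% of all regions. Without untreated MDA-MB-231 they were 247 (4.68%) and 98 (1.86%), against 5.58% and 5.15%. Leaving out 1 list gave 230 to 390 (4.36% to 7.39%) and 50 to 142 (0.947% to 2.69%), against 5.34% to 9.81% and 3.1% to 6.56% of all regions. Higher calls were 62 (1.17%) with only the PC3 groups and 139 (2.63%) with the 2 groups compared, against 4.02% and 5.04% of all regions. The fits on 2 groups and without untreated MDA-MB-231 were chosen after seeing the data. The cause of these changes was not tested.

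The width ratio of day 10 against day 1 was 0.0868 and turned to -0.0499 with the 50000 peaks, and ran from 0.0383 to 0.13 without 1 list. The difference of the PC3 share ratio ran from 0.198 to 0.265 without 1 list. With the replicate block, 228 members were higher and 56 lower at day 10. In PC3 433 (8.2%) and 154 (2.92%) were, against 8.95% and 7.32% of all regions. Same-numbered PC3 lists correlated at 0.0324, -0.0739 and 0.0162 and share only a number. Of the day 10 calls in limma, the block ended 0 of 11 among the members named by size or change, 1 of 9 at the named genes (JAKMIP1, adjusted p = 0.057) and 1 of 4 at coding starts (ARHGEF38, adjusted p = 0.066), and added none. The fit of only the MDA-MB-231 groups ended 0, 5 and 3 of these and added 4, 1 and 1. Depth is unknown, and short, low peaks such as most members are the ones a stricter peak threshold removes.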

Other observations

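The values of 6 further members at coding starts are given here, picked after they were seen. TRPC6, a calcium-permeable cation channel, had 1198, 578 and 511 bp at day 1 and 1335, 503 and 527 bp at day 10, with no PC3 peak. AQP4, the water channel of astrocytes, had 650, 276 and 614 bp and then 377, 390 and 379 bp, and in PC3 a peak in 0 of 3 untreated, 3 of 3 day 1 and 1 of 3 day 10 lists. FMOD, which encodes the collagen-binding proteoglycan fibromodulin, had 655, 664 and 735 bp at day 1 and 662, 781 and 644 bp at day 10, with no PC3 peak. ESM1, an endothelial secreted proteoglycan, had 736 to 758 bp at day 1, 777 to 789 bp at day 10 and peaks in all 9 PC3 lists. GHR, the growth hormone receptor, had 259 to 267 bp at day 1 and 255 to 275 bp at day 10. RSAD2, the interferon-induced protein viperin, had 774 to 823 bp and 700 to 828 bp. Of these 6, day 10 lay above day 1 without overlap at ESM1, and none passed the test of day 10 against day 1 in limma.

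Start sites of noncoding genes made up 43 of the genes touched. MIR100HG, a host gene of microRNAs, had a mean of 279.5 bp covered over the 6 treated lists, LINC01133 382.5 bp, and LNCAROD 299.7 bp with a TGANTCA match 100 bases before its start.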
